A study of Homo sapiens with 21 samples.

Results

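The KDM7A locus on human chromosome 7 was followed by Tri-C in BLaER cells, an established B lineage leukaemia line of human origin that can be switched to a macrophage state. All 7 libraries that captured this locus were used, out of 371 deposited tables over 53 loci. These Tri-C libraries hold no expression, so cell identity could not be checked here against marker genes. From a viewpoint in the KDM7A enhancer there were 4 libraries, from cells at 0 h, at 24 h and at 96 h of conversion and from CTCF-depleted cells at 96 h. A viewpoint at the CTCF-binding site (CBS) of the domain boundary gave 3 libraries, of cells at 0 h, of cells at 24 h and of cells at 96 h. Conversion was driven by C/EBPα activation with 17β-estradiol in medium with IL-3 and CSF-1, so the 24 h and 96 h cells carried this treatment in every library. The depleted cells were the CTCF-AID subclone, in which CTCF has an auxin-inducible degron, treated with auxin during conversion, whereas the 96 h cells were labelled as BLaER without a subclone, so that the clone, the auxin and the loss of CTCF cannot be told apart. Each library pools 3 biological replicates of its group, so each condition had a single library, without any check of a difference over replicates. Intervals below are 95% exact intervals that cover counting error only, and a read with several reporter fragments adds several counts that are not independent.

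KDM7A encodes a JmjC-domain histone demethylase that removes methyl groups from lysine residues of histone H3. SLC37A3 encodes a membrane transporter of the SLC37 sugar-phosphate family. Cohesin extrudes chromatin loops until it meets CTCF bound in a suitable orientation, so that a CTCF site can mark the edge of a contact domain. An enhancer is known to meet promoters inside its own domain more often than promoters past such an edge. Tri-C reads hold a captured fragment and at least 2 reporter fragments, so that a count is a contact of 3 fragments on 1 allele.

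In hg38, the enhancer viewpoint lay at chr7:140252074-140254286, between annotated genes. The canonical start of KDM7A, on the minus strand, was at position 140176983, 76.2 kb away, and the divergent transcript KDM7A-DT started 0.201 kb from it. On the opposite side of the enhancer, the boundary viewpoint lay at chr7:140325702-140327490, 73.4 kb from the enhancer viewpoint. This position is inside the annotated span of SLC37A3, in no exon, and past the end of its canonical transcript at 140333752. The canonical start of SLC37A3, also on the minus strand, was at 140398530, which is 145.35 kb from the enhancer and 71.9 kb past the boundary viewpoint. RAB19, a small GTPase gene, starts 5.53 kb from SLC37A3 on the plus strand, so that the windows around the 2 starts overlap and their contacts cannot be separated. The order along the chromosome was thus KDM7A, enhancer, boundary site, SLC37A3.

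The restriction fragment captured at the enhancer, and a stretch of the boundary viewpoint, are shown to place the viewpoints in the genome. The enhancer fragment holds the capture oligonucleotide, whereas the boundary stretch was chosen around a motif match and need not be the captured fragment. The enhancer fragment spanned chr7:140253083-140253329 on the plus strand, with its NlaIII sites in capitals.
Enhancer fragment: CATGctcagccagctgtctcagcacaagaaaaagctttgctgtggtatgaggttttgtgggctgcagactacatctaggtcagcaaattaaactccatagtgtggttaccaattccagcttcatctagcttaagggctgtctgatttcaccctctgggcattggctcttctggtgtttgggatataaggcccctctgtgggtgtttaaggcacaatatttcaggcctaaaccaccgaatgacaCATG
The boundary stretch spanned chr7:140326345-140326556 and is given on the minus strand. Capitals mark a match with 2 mismatches to the CTCF core consensus, searched on both strands over 12 positions. The boundary viewpoint held 2 such matches, and the one nearer its centre is shown. The other lay at chr7:140325829-140325840.
Boundary stretch: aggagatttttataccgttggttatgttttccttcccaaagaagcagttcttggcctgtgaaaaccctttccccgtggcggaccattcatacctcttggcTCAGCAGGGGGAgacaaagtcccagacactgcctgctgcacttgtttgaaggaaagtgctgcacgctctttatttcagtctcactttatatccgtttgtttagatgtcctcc
A match with up to 2 mismatches was present in 65.4% of windows of the same length within 1 Mb, and one with up to 1 mismatch, absent here, in 9.31%. The same search found a closer match, with 1 mismatch, in the enhancer viewpoint at chr7:140253834-140253845, where 11.5% of windows of that length held one with up to 1. Windows of 12 kb at the KDM7A and SLC37A3 starts also held matches with 1 mismatch, as did 50% of such windows with up to 1. All these matches are descriptions of letters and no measured CTCF sites. The KDM7A promoter, from RefSeq in GRCh38.p14 at chr7:140176934-140177233 on the minus strand, is shown as that of the gene that names the locus. Capitals mark CCGCC and its reverse complement GGCGG, the core of GC boxes.
KDM7A promoter: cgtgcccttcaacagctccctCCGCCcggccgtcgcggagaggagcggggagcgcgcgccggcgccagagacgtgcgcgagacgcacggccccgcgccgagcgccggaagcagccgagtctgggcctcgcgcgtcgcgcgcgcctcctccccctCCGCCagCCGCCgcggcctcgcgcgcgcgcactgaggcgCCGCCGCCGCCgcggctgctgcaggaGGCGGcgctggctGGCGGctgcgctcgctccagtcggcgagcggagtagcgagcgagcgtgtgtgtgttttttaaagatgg
It held 56 CpG dinucleotides in 300 bases, against a median of 14 over 35116 promoters of the same length, and 0.276% of those promoters held at least as many. The GC-box core occurred 8 times, and 59.0% of the promoters held it at least once. Of the promoters of KDM7A and SLC37A3, 1 was found in the sequence table.

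The enhancer libraries held 35292 counts within 1 Mb of the viewpoint at 0 h, 36903 at 24 h and 29276 at 96 h, with 63692 in the depleted library. The boundary libraries held 34017 counts at 0 h, 44430 at 24 h and 34717 at 96 h. Counts were named distant where each reporter was over 10 kb away from the viewpoint and over 10 kb from the other. They made up 25.9% of the enhancer total at 0 h, 24.7% at 24 h and 26.9% at 96 h. The depleted library had 19.8%, against the 26.9% at 96 h. Counts of neighbouring fragments were 49.1% of the chromosome's counts in the depleted library and 36.1% at 96 h, and each fragment pair was seen 2.29 and 1.66 times. The lower distant share was not particular to KDM7A, since 47 of 51 loci, or 92.2%, had at least 1.5-fold lower odds of a distant count in the depleted library than at 96 h, and 0% had higher. Every element's share of the total moves with this share, so the depleted library is described below also with distant counts as the total.

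Contacts of the enhancer with the KDM7A promoter rose during conversion and were lower in the depleted library. The window of 12 kb around the KDM7A start held 338 of 35292 counts (0.958%, interval 0.859 to 1.06%) at 0 h. It held 619 of 36903 (1.68%, 1.55 to 1.81%) at 24 h and 707 of 29276 (2.41%, 2.24 to 2.60%) at 96 h. The 3 intervals do not overlap, and the share was higher at each later time. The log2 odds ratio, which compares the window's counts with all other counts within 1 Mb, was 0.82 (interval 0.63 to 1.01) for 24 h against 0 h and 1.36 (1.17 to 1.55) for 96 h against 0 h. A change was called where the interval excluded 0 and the odds differed by at least 1.5-fold, and both changes were called. Both comparisons share the 0 h library. Among 12 kb tiles of the whole region, 3.73% were called higher at 24 h and 6.83% at 96 h, against 33.5% and 49.7% called lower. KDM7A thus rose while few tiles of the whole region rose and many fell. Of the 12 tiles from the KDM7A promoter to the boundary site, 5 were higher at 96 h than at 0 h and 0 lower.

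In the depleted library the KDM7A promoter window held 888 of 63692 counts (1.39%, 1.30 to 1.49%), against 707 of 29276 (2.41%) at 96 h. This share lay between those of 0 h and 24 h. This log2 odds ratio, -0.81 (-0.95 to -0.66), was called lower. Among tiles 39.1% were called lower and 26.3% higher. With distant counts as the total the log2 odds ratio was -0.38 (-0.52 to -0.24) and not called, and it was -0.31 with each fragment pair counted once.

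The SLC37A3 promoter, past the boundary site, took the opposite course by 96 h, as did most tiles past the site. Its window held 148 counts (0.419%, 0.355 to 0.492%) at 0 h, 186 (0.504%, 0.434 to 0.582%) at 24 h and 71 (0.243%, 0.189 to 0.306%) at 96 h. The intervals at 0 h and 24 h overlap, and the 96 h interval lies below both. This gave a log2 odds ratio of 0.27 (-0.05 to 0.59) for 24 h against 0 h, which was not called. For 96 h against 0 h it was -0.79 (-1.22 to -0.37), which was called lower. Of all tiles 49.7% were called lower at 96 h, and of those past the boundary site 60 of 74, with a median of -1.59. SLC37A3 thus fell less than the median tile past the site. The window held 358 of 63692 counts in the depleted library (0.562%, 0.505 to 0.623%), against 71 of 29276 (0.243%) at 96 h. The log2 odds ratio of 1.22 (0.85 to 1.61) was called higher, and it was 1.68 with distant counts as the total. Past the boundary site 41 of 71 tiles were called higher in the depleted library, with a median of 1.06, so SLC37A3 was near its surroundings. The comparison with the depleted library and that of 96 h with 0 h share the 96 h library.

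**Figure D1:**
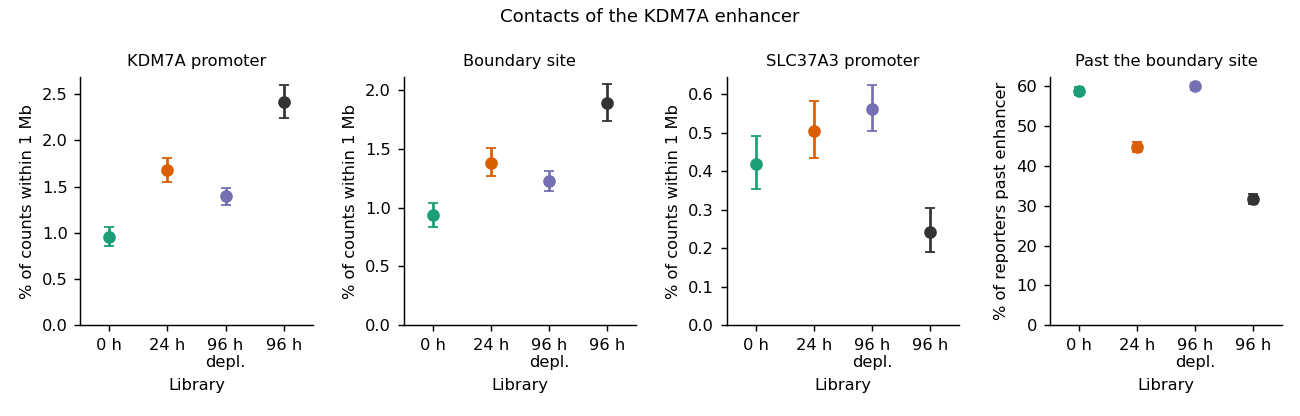
Contacts of the KDM7A enhancer with 12 kb windows at the KDM7A promoter, the boundary site and the SLC37A3 promoter (% of counts within 1 Mb of the enhancer), and, among distant reporters toward the boundary, the percentage past the boundary site, for the libraries at 0 h, at 24 h, depleted at 96 h and at 96 h. Points are single pooled libraries and bars 95% exact counting intervals. The KDM7A promoter reached 2.41% at 96 h, where SLC37A3 was at its lowest, 0.243%.

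The balance between the 2 promoters needs no total. For each count at the KDM7A promoter, the enhancer had 0.438 counts at SLC37A3 at 0 h, 0.300 at 24 h and 0.1004 at 96 h. The depleted library had 0.403, against 0.1004 at 96 h. As log2 odds ratios these are -0.54 (-0.86 to -0.22) at 24 h and -2.12 (-2.55 to -1.71) at 96 h, each against 0 h, and 2.01 (1.63 to 2.39) for the depleted against the 96 h library. The last 2 were called and the first fell just short of 1.5-fold.

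The share of the window at the boundary site rose with that of the KDM7A promoter. This window held 330 counts (0.935%) at 0 h, 510 (1.38%) at 24 h and 552 (1.89%) at 96 h from the enhancer. At 24 h the log2 odds ratio was 0.57 (0.37 to 0.77), short of 1.5-fold, and it was 1.03 (0.83 to 1.23) at 96 h, which was called higher. The depleted library had 779 counts (1.22%), against 552 (1.89%) at 96 h, a log2 odds ratio of -0.63 (-0.79 to -0.47) that was called lower. With distant counts as the total it was -0.19, and in windows of 30 kb -0.18, and neither was called. Among the boundary windows of 51 loci, 7 were called higher and 2 lower at 24 h, and 21 higher and 2 lower at 96 h. In the depleted library 44 were called lower and 1 higher, with a median of -1.09, so KDM7A fell less than most.

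Reporters were then divided at the boundary site. Of the distant reporters on the boundary's side of the enhancer, leaving out the boundary window of 12 kb, 4779 of 8136 (58.7%) lay past the site at 0 h. The share was 3194 of 7143 (44.7%) at 24 h and 1870 of 5915 (31.6%) at 96 h. Of 13472 reporters in the depleted library, 8071 (59.9%, 59.1 to 60.7%) lay past it, against 31.6% (30.4 to 32.8%) at 96 h, and the 0 h value had an interval of 57.7 to 59.8%. The log2 odds ratios were -0.82 (-0.88 to -0.75) for 24 h and -1.62 (-1.70 to -1.55) for 96 h against 0 h, and 1.69 (1.62 to 1.77) for depleted against 96 h. All 3 were called.

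Set against the 51 loci measured the same way, the changes in crossing at 96 h and in the depleted library were at KDM7A near the end of the range. The change at 96 h against 0 h ranked 2 from the lowest of 51, where the median log2 odds ratio was -0.42. The change in the depleted library ranked 2 from the highest, where the median was 0.70. The levels stood less apart. Crossing at KDM7A ranked 14 from the highest at 0 h, with 58.7% beside a median of 42.2%. It ranked 27 at 96 h, with 31.6% beside 32.6%, and 16 in the depleted library, with 59.9% beside 45.7%. At 24 h, 11.8% of loci were called higher and 19.6% lower for crossing, at 96 h 5.88% higher and 41.2% lower, and in the depleted library against 96 h 62.7% higher and 0% lower. The KDM7A promoter window stood less apart. Its rise ranked 8 of 51 at 24 h, where 19.6% of loci were called higher and 17.6% lower. It ranked 9 of 51 at 96 h, where 51% were called higher and 21.6% lower. Its fall in the depleted library was close to the median of -0.93, with 78.4% of loci called lower and 0% higher. Ranks are descriptions, as the loci differ in distance between enhancer, promoter and boundary.

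**Figure D2:**
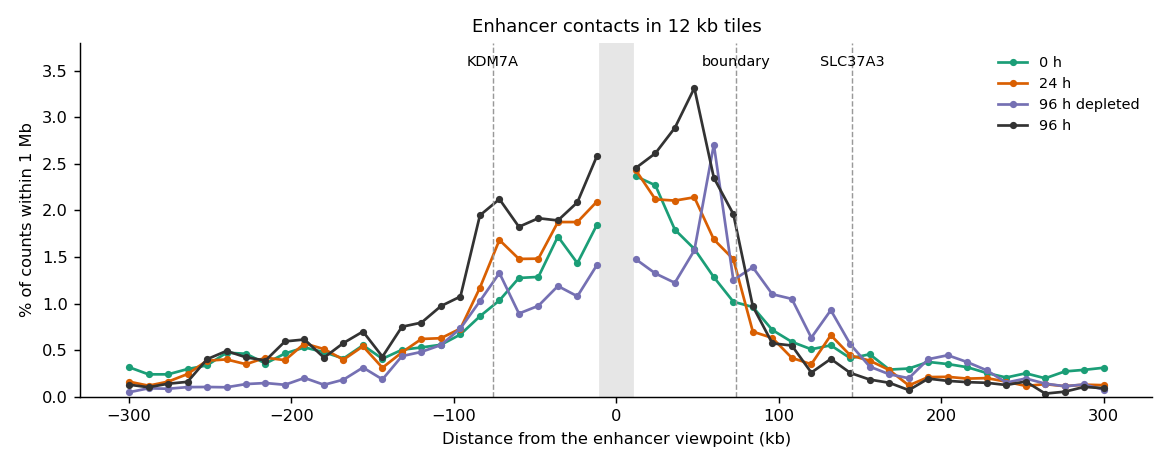
Enhancer contacts in 12 kb tiles by distance from the enhancer viewpoint (kb, KDM7A side negative), as % of counts within 1 Mb, for the 0 h, 24 h, 96 h depleted and 96 h libraries. Dashed lines mark the KDM7A start, the boundary site and the SLC37A3 start, and the grey band the 10 kb around the viewpoint. The 96 h line is highest between KDM7A and the boundary, with 3.31% at 48 kb, and the depleted line has its top, 2.71%, at 60 kb.

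The tile profile fell across the boundary site, by a ratio that includes the decline with distance. The 3 tiles centred 36 to 60 kb from the enhancer, before the site, held 1646 counts at 0 h against 801 in the 3 tiles centred 84 to 108 kb, past it, a ratio of 2.05 (1.89 to 2.24). The ratio was 3.40 (3.11 to 3.71) at 24 h and 4.08 (3.74 to 4.47) at 96 h. It was 1.55 (1.47 to 1.64) in the depleted library, with 3504 counts before and 2255 past the site, against the 4.08 at 96 h. The ratio thus grew over conversion, and in the depleted library it was smaller than at 0 h. On the KDM7A side, the tiles at 48 and 96 kb held 454 and 236 counts at 0 h, against 560 and 253 on the boundary's side. The 0 h ratio is therefore not read as a step at the site. At 96 h these tiles held 561 and 315 counts on the KDM7A side, against 970 and 168.

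A step lay on the KDM7A side, past PARP12, and it was chosen after the profiles had been seen. Tiles centred 228 to 252 kb from the enhancer on that side held 1.63 (1.40 to 1.90) times the counts of tiles centred 264 to 288 kb away at 0 h, 2.16 (1.82 to 2.58) times at 24 h and 3.27 (2.66 to 4.06) times at 96 h. The ratio in the depleted library was 1.22 (0.9996 to 1.499), against 3.27 at 96 h. From the boundary viewpoint the same place, around position 140002596, showed a step of 2.39 (2.13 to 2.69) at 0 h, 3.02 (2.77 to 3.303) at 24 h and 3.35 (2.99 to 3.75) at 96 h.

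Median reach along the chromosome was shorter at each later time on both sides of the enhancer. The median distance of distant reporters on the KDM7A side was 193.9 kb at 0 h, 147.5 kb at 24 h and 106.9 kb at 96 h. The depleted library had 101.7 kb there, against 106.9 kb at 96 h. On the SLC37A3 side it was 101.7 kb at 0 h, 65.0 kb at 24 h and 52.9 kb at 96 h. In the depleted cells it was 92.1 kb, against 52.9 kb at 96 h. Distant reporters lay on the KDM7A side in 53.7% at 0 h, 58.1% at 24 h and 59.0% of cases at 96 h, and in 43.5% (42.9 to 44.1%) in the depleted library, against 59.0% (58.2 to 59.8%) at 96 h. The depleted library was the 1 library of the 4 with most distant reporters on the SLC37A3 side.

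Calls were then counted by position, with tiles past the boundary site given first. At 24 h against 0 h, 39 of 73 such tiles were lower and 0 higher, with a median log2 odds ratio of -0.90 beside -0.41 over all 161 tiles. At 96 h against 0 h, 60 of 74 were lower and 0 higher, with a median of -1.59 beside -0.73 over all tiles. For depleted against 96 h, 41 of 71 were higher and 0 lower, with a median of 1.06 beside -0.19 over all 156 tiles. Of the 12 tiles from the KDM7A promoter to the boundary site, 5 were higher at 96 h than at 0 h and 0 lower, and 11 were lower in the depleted library than at 96 h. Past the KDM7A promoter, 50 of 73 tiles were lower in the depleted library and 0 higher. With distant counts as the total, which moved the median tile by 0.44, the depleted library had 60 tiles higher and 27 lower, beside 41 and 61, and 58 of the 71 tiles past the boundary site were higher. The 11 lower tiles from promoter to boundary then became 4, with 1 higher, and 23 of the 73 past the KDM7A promoter were called lower. Chromosome counts as the total moved the median tile by 0.15 at 24 h and 0.12 at 96 h against 0 h, and by 0.13 for depleted against 96 h. The splits were then 11 higher and 43 lower at 24 h, beside 6 and 54, and 46 and 44 in the depleted library, beside 41 and 61.

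**Figure D3:**
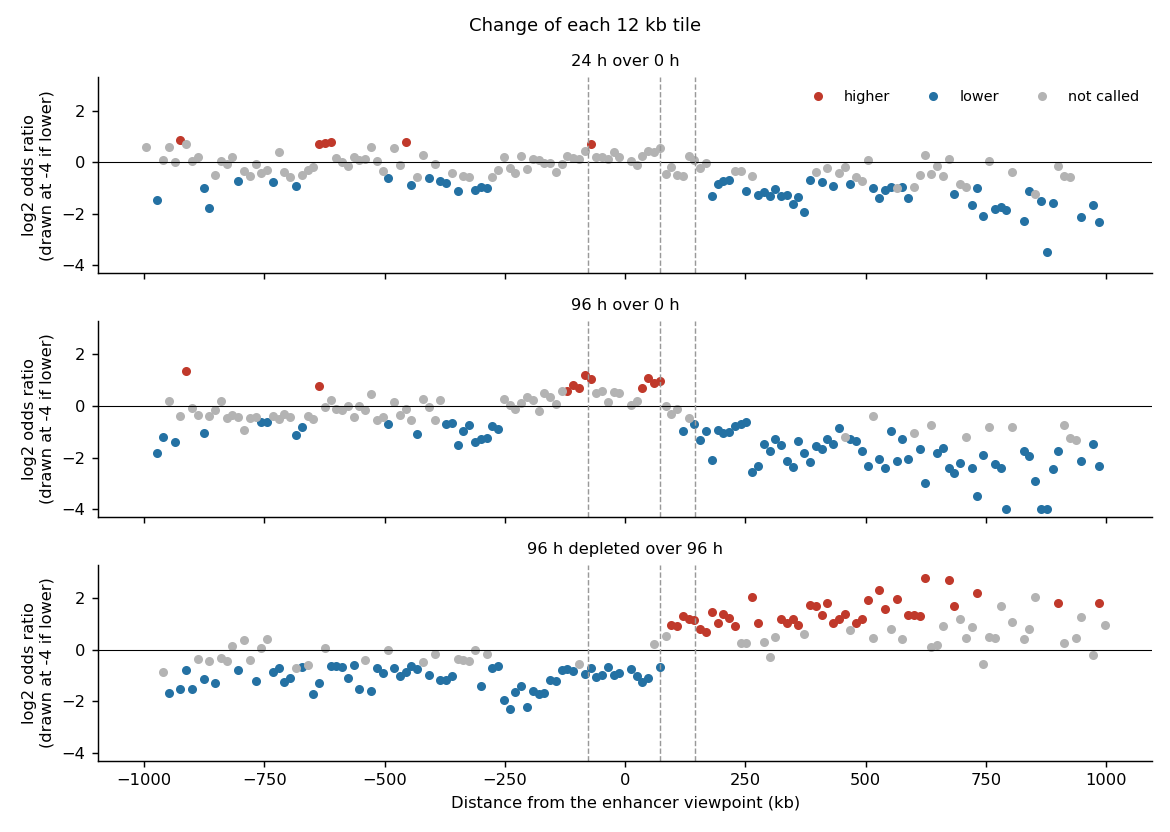
Change of enhancer contacts in each 12 kb tile (log2 odds ratio, values under -4 drawn at -4) by distance from the enhancer viewpoint (kb, KDM7A side negative), for 24 h over 0 h, 96 h over 0 h and 96 h depleted over 96 h. Red tiles were called higher, blue tiles lower, and dashed lines mark KDM7A, the boundary site and SLC37A3. Past the boundary site 60 of 74 tiles were lower at 96 h than at 0 h, and 41 of 71 were higher in the depleted library than at 96 h.

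Among tiles with at least 50 counts over both libraries, the largest rises at 96 h against 0 h were the neighbouring tiles at 84 kb and 72 kb on the KDM7A side, of which the second holds the KDM7A start, and a tile at 48 kb on the boundary's side. The tile at 84 kb, in the KDM7A gene, held 570 counts (1.95%) at 96 h and 305 (0.864%) at 0 h, a log2 odds ratio of 1.19 (0.98 to 1.39). The tile at 48 kb held 970 counts (3.31%) at 96 h and 560 (1.59%) at 0 h, with 1.09 (0.94 to 1.24), and it was the highest tile of that library beyond 10 kb. The largest falls were at 792, 264 and 720 kb on the SLC37A3 side. The tile at 792 kb held 0 counts at 96 h and 52 at 0 h, 14.4-fold lower by a floor of 3 counts in the 96 h library. The interval of its log2 odds ratio had an upper limit of -3.50. The tile at 264 kb held 10 counts at 96 h and 70 at 0 h, a log2 odds ratio of -2.54 (-3.66 to -1.58). At 24 h the largest falls were at 744, 372 and 792 kb on the same side, with log2 odds ratios of -2.10, -1.91 and -1.86. The largest rises at 24 h were far past KDM7A, at 924, 612 and 456 kb, with 0.86, 0.78 and 0.78.

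The largest rises in the depleted library against 96 h were all past the boundary site, at 672, 528 and 264 kb. Their counts were 71, 54 and 90 in the depleted library, against 5, 5 and 10 at 96 h, with log2 odds ratios of 2.71, 2.31 and 2.05. The largest falls were all on the KDM7A side, at 240, 204 and 252 kb. Their counts were 65, 82 and 67 in the depleted library, against 144, 174 and 118 at 96 h, with log2 odds ratios of -2.27, -2.21 and -1.94. The tiles at 240 and 252 kb lie next to the step past PARP12, and that at 204 kb lies nearer the enhancer. Shares of these falls were 0.102 to 0.129% in the depleted library, against 0.403 to 0.594% at 96 h.

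Of the promoters of 10 protein-coding genes within 500 kb of the enhancer, the 4 on the KDM7A side and the 6 on the SLC37A3 side are given by side. PARP12, an ADP-ribosyltransferase gene 190.2 kb from the enhancer, held 185 counts (0.524%) at 0 h, 200 (0.542%) at 24 h and 193 (0.659%) at 96 h, with no call. PARP12 held 104 counts (0.163%) in the depleted library, against 193 (0.659%) at 96 h, a log2 odds ratio of -2.02 (-2.38 to -1.67), and -1.59 with distant counts as the total. HIPK2, a protein kinase gene, and TBXAS1, the thromboxane synthase gene, were called lower in the depleted library against 96 h with -0.89 and -0.98, and neither with distant counts as the total. No gene on this side other than KDM7A was called between times.

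On the SLC37A3 side, RAB19, DENND2A, ADCK2 and NDUFB2 were called lower at 96 h than at 0 h together with SLC37A3. So were 60 of 74 tiles past the boundary site. DENND2A, which encodes a DENN-domain protein that activates a Rab GTPase, held 96 counts (0.272%) at 0 h, 58 (0.157%) at 24 h and 14 (0.0478%) at 96 h. It was the 1 gene of this side called at 24 h, with a log2 odds ratio of -0.79, and reached -2.51 (-3.44 to -1.70) at 96 h. It held 129 counts (0.203%) in the depleted library, against 14 (0.0478%) at 96 h, a log2 odds ratio of 2.08 (1.29 to 3.00). ADCK2, for a mitochondrial kinase-like protein, had -1.29 at 96 h against 0 h and 1.77 in the depleted library against 96 h, and NDUFB2, for a subunit of respiratory complex I, had -0.84 and 1.25. RAB19 had -1.24 and 0.86. MKRN1, an E3 ubiquitin ligase gene, had -0.58 (-1.11 to -0.06) at 96 h against 0 h, just under 1.5-fold, and 0.67 (0.20 to 1.16) in the depleted library, which was called. All 6 promoters of this side were therefore called higher in the depleted library, and stayed so with distant counts as the total. Of all tiles 26.3% were called higher, and of those past the boundary site 41 of 71, or 58 of 71 with distant counts as the total. SLC37A3 was not set apart from these neighbours, and RAB19 shares part of its window.

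Local contrast was given by dividing each window by the mean of the windows 24 kb to either side, which removes the total and most of the decline with distance. At the KDM7A promoter it was 0.983 (0.860 to 1.12) at 0 h, 1.51 (1.36 to 1.68) at 24 h and 1.69 (1.53 to 1.87) at 96 h. It was 1.73 (1.58 to 1.90) in the depleted library, against 1.69 at 96 h, and these intervals overlap. The promoter thus stood out from its flanks from 24 h on, also in the depleted library where its share of all counts was lower. At the SLC37A3 promoter the contrast was 1.06 (0.866 to 1.30) at 0 h, 1.68 (1.38 to 2.06) at 24 h and 1.17 (0.863 to 1.59) at 96 h, and 1.34 (1.17 to 1.54) in the depleted library. By these intervals SLC37A3 lay above the mean of its flanks at 24 h and in the depleted library. It did not at 0 h or 96 h. In the depleted library its 358 counts lay between 381 in the flank nearer the enhancer and 153 in the farther flank. At 24 h its 186 counts exceeded both flanks, which held 120 and 101. No single fragment carried a window, as the leading fragment held at most 7.90% of reporters in the KDM7A window and at most 11.3% in the SLC37A3 window.

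The depleted library had its highest tile 60 kb from the enhancer, 13 kb short of the boundary site, where 12 kb held 2.71% of counts against 2.35% at 96 h. The tiles before it, at 36 and 48 kb, held 1.22% and 1.57% in the depleted library, against 2.89% and 3.31% at 96 h. Its 1728 reporters came from 1233 fragment pairs over 58 fragments, and the largest pair had 6 counts. A local maximum also lay at 132 kb, between the boundary site and the SLC37A3 start, with 0.929% in the depleted library against 0.406% at 96 h. That tile held 0.553% at 0 h and 0.661% at 24 h, and it stood above both of its neighbours in all 4 libraries.

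Beside the enhancer and a promoter, each contact held a further fragment, whose place was counted. For contacts with the KDM7A promoter, this fragment lay past the boundary site in 70 of 338 counts (20.7%) at 0 h, 102 of 619 (16.5%) at 24 h and 72 of 707 (10.2%) at 96 h. It lay there in 254 of 888 (28.6%) in the depleted library, against 10.2% at 96 h. Over all distant reporters, 26.1% lay past the site at 0 h, 17.5% at 24 h and 11.9% at 96 h, and 31.98% in the depleted library, with log2 odds ratios of -0.74, -1.40 and 1.81 for the 3 comparisons. The shares beside the KDM7A promoter were thus near those of the whole region and are not read as particular to it. For KDM7A contacts the log2 odds ratios were -1.20 (-1.70 to -0.71) for 96 h against 0 h and 1.82 (1.44 to 2.22) for depleted against 96 h, both called, and -0.40 (-0.86 to 0.06) at 24 h. Further fragments between the KDM7A promoter and the boundary site made up 48.2% at 0 h, 55.6% at 24 h and 63.2% at 96 h, and they made up 444 of 888 in the depleted library. The share in the interval up to the boundary site was called higher at 96 h than at 0 h, with a log2 odds ratio of 0.88 (0.62 to 1.15), and lower in the depleted library than at 96 h, with -0.78 (-0.97 to -0.59). Over all distant reporters the same interval had 0.98 and -0.64, both called.

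For contacts with the boundary site, the further fragment lay past the site in 27.9% at 0 h, 17.6% at 24 h and 14.9% at 96 h, and the depleted library had 30.4%, against 14.9% at 96 h. All 3 comparisons were called, with log2 odds ratios of -0.85, -1.15 and 1.33, as they were over all distant reporters, with -0.74, -1.40 and 1.81.

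For contacts with the SLC37A3 promoter, further fragments between the KDM7A promoter and the boundary site were 50 of 148 (33.8%) at 0 h, 87 of 186 (46.8%) at 24 h and 40 of 71 (56.3%) at 96 h. They were 139 of 358 (38.8%) in the depleted library, against 56.3% at 96 h. The log2 odds ratios were 0.78 (0.27 to 1.32) at 24 h and 1.34 (0.70 to 1.97) at 96 h against 0 h and -1.02 (-1.54 to -0.48) for depleted against 96 h, and all 3 were called. Over all distant reporters that interval held 37.4% at 0 h, 46.8% at 24 h and 54.1% at 96 h, and it held 43.1% in the depleted library, so the SLC37A3 contacts followed the region here. Their further fragments lay past the boundary site in 41.2% at 0 h, 31.2% at 24 h and 30.99% (20.5 to 43.1%) at 96 h, and in 43.6% in the depleted library.

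**Figure D4:**
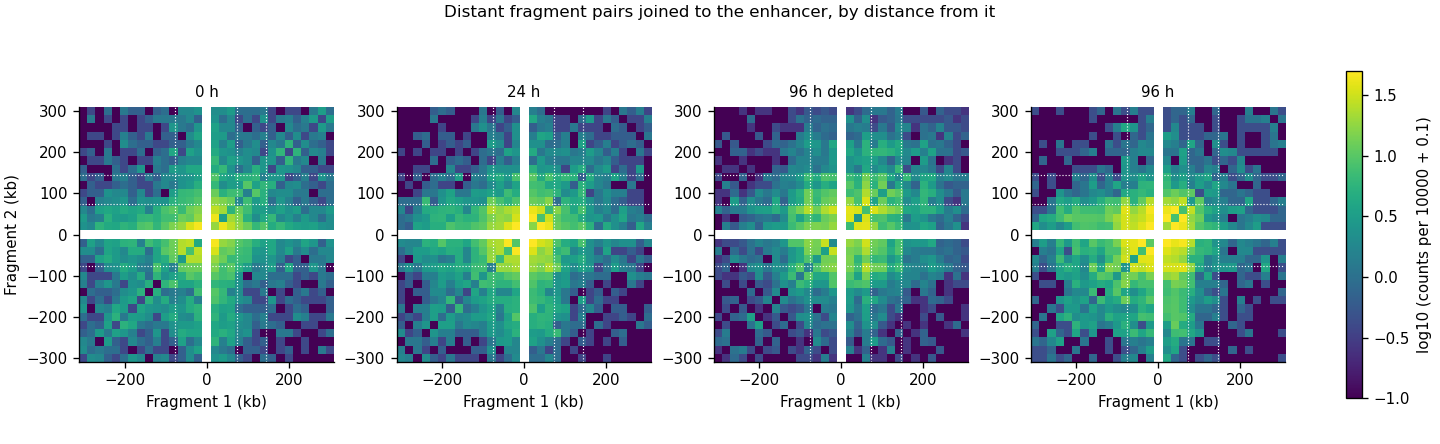
Distant fragment pairs joined to the KDM7A enhancer in bins of 20 kb, by each fragment's distance from the enhancer (kb, KDM7A side negative), for the 0 h, 24 h, 96 h depleted and 96 h libraries. Colour is log10 of counts per 10000 counts within 1 Mb plus 0.1, white bands are the bins at the viewpoint, and dotted lines mark KDM7A, the boundary site and SLC37A3. The square between KDM7A and the boundary is brightest at 96 h, where it held 33.4% of distant counts, and signal past the boundary is brighter in the depleted library.

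Pairs sorted by position gave the same picture for the whole region. Both reporters lay between the KDM7A promoter and the boundary site in 18.0% of distant counts at 0 h, 26.2% at 24 h and 33.4% at 96 h, and in 22.7% in the depleted library. Both lay past the boundary site in 13.2% at 0 h, 6.72% at 24 h and 3.75% at 96 h. Such counts were 14.9% in the depleted library, against 3.75% at 96 h, a log2 odds ratio of 2.16 (1.99 to 2.35). A reporter past the site was joined to one on the KDM7A side in 16.5% at 0 h, 13.4% at 24 h and 9.64% at 96 h, and in 20.6% in the depleted library. These shares use distant counts alone, so they do not move with the lower distant share of the depleted library.

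Contacts of the enhancer with the KDM7A promoter and the boundary site at once were few. They numbered 14 at 0 h, 34 at 24 h and 29 at 96 h, and 44 in the depleted library. Relative to 0 h, the log2 odds ratio was 1.22 (0.28 to 2.23) at 24 h and 1.32 (0.35 to 2.36) at 96 h, both called, and -0.52 (-1.23 to 0.21) for depleted against 96 h. Neither rise was called with all counts divided by 3. As a reference, the product of the counts of its 2 windows was divided by the distant counts. Each count holds 2 reporters, so independent placing would give less than this reference, and ratios to it are read only between libraries. The triple had 1.15 (0.63 to 1.92) times the reference at 0 h and 0.98 (0.68 to 1.37) times at 24 h. It had 0.59 (0.39 to 0.84) times at 96 h and 0.80 (0.58 to 1.08) times in the depleted library. The rise of the triple was thus not beyond that of its 2 windows. In windows of 30 kb this triple was called lower, with 202 counts in the depleted library and 140 at 96 h and a log2 odds ratio of -0.59 (-0.91 to -0.27). In windows of 7.5 kb it was also called lower, with 9 counts in the depleted library and 16 at 96 h. Contacts of the enhancer with both promoters numbered 2 at 0 h, 8 at 24 h and 3 at 96 h, and 9 in the depleted library. Contacts with the boundary site and SLC37A3 numbered 4 at 0 h, 5 at 24 h and 5 at 96 h, and 4 in the depleted library. At this depth no difference between libraries was detectable for either in windows of 12 kb. In windows of 30 kb, the depleted library had 72 counts of both promoters, against 15 at 96 h, and 100 counts of the boundary site with SLC37A3, against 15 at 96 h, with log2 odds ratios of 1.14 (0.33 to 2.05) and 1.62 (0.83 to 2.51), both called. The same windows also called both triples higher at 24 h than at 0 h, with 39 counts of both promoters at 24 h and 18 at 0 h, and 51 counts of the boundary site with SLC37A3 at 24 h and 26 at 0 h, with log2 odds ratios of 1.05 (0.21 to 1.94) and 0.91 (0.20 to 1.65). Neither was called at 96 h against 0 h.

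Seen from the boundary site, neither promoter window was called at any time, and the KDM7A window held more counts than the nearer SLC37A3 window in each of the 3 libraries. The KDM7A promoter window, 149.6 kb away, held 508 counts (1.49%, 1.37 to 1.63%) at 0 h, 716 (1.61%, 1.496 to 1.73%) at 24 h and 590 (1.699%, 1.57 to 1.84%) at 96 h. Its log2 odds ratios were 0.11 (-0.05 to 0.28) and 0.19 (0.02 to 0.36) against 0 h, and neither was called. The SLC37A3 window, 71.9 kb away, held 169 counts (0.497%) at 0 h, 254 (0.572%) at 24 h and 139 (0.400%) at 96 h. Its log2 odds ratios were 0.20 (-0.08 to 0.49) and -0.31 (-0.65 to 0.02), and neither was called. The enhancer window held 398 counts (1.17%), 412 (0.927%) and 469 (1.35%) at the 3 times, with log2 odds ratios of -0.34 (-0.54 to -0.14) and 0.21 (0.01 to 0.41), both under 1.5-fold. In tiles from this viewpoint, 9.7% were called higher and 7.27% lower at 24 h, and 6.71% higher and 26.8% lower at 96 h. With distant counts as the total, the 24 h split was 8 higher and 20 lower, beside 16 and 12. With chromosome counts it was 23 and 7, with a median tile 0.17 higher, and at 96 h it was 17 and 39, beside 11 and 44. Among 48 loci with at least 20 counts, 25% had a promoter window called higher from the boundary site and 2.08% called lower at 24 h, and 43.8% called higher and 2.08% lower at 96 h. KDM7A was among those with no call. Against the mean of the windows 24 kb to either side, the KDM7A promoter had 1.42 times the counts at 0 h, 1.41 times at 24 h and 1.22 times at 96 h, with every interval above 1. SLC37A3 had 0.768, 0.946 and 0.777 times at the same times. At 96 h the 590 counts of the KDM7A window lay between 319 in the nearer flank and 652 in the farther one. The promoter thus did not exceed both of its flanks there.

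**Figure D5:**
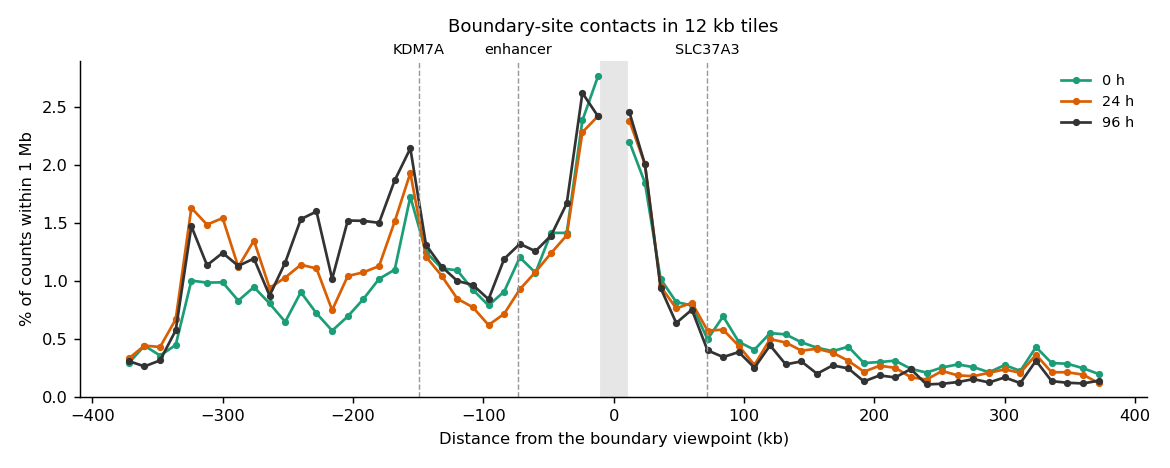
Contacts of the boundary site in 12 kb tiles by distance from the boundary viewpoint (kb, KDM7A side negative), as % of counts within 1 Mb, for the 0 h, 24 h and 96 h libraries. Dashed lines mark the KDM7A start, the enhancer and the SLC37A3 start. The tile next to the KDM7A start, at 156 kb, held 1.73% at 0 h, 1.93% at 24 h and 2.14% at 96 h, above its neighbours in all 3 libraries.

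The side on which the boundary site made contacts was called different at 96 h. Reporters on the SLC37A3 side were 6827 of 22566 (30.3%) at 0 h, 7871 of 30998 (25.4%) at 24 h and 5030 of 24284 (20.7%) at 96 h. Against 0 h the log2 odds ratio was -0.35 (-0.40 to -0.30) at 24 h, under 1.5-fold, and -0.73 (-0.78 to -0.68) at 96 h, which was called. The median distance of distant reporters on that side was 143.3 kb at 0 h, 115.2 kb at 24 h and 79.9 kb at 96 h. Past the site, 41 of 81 tiles were lower at 96 h and 0 higher. RAB19, MKRN1, DENND2A, ADCK2 and NDUFB2 were called lower at 96 h, with log2 odds ratios of -0.82, -0.80, -0.91, -1.12 and -0.96, whereas PARP12, HIPK2 and TBXAS1 had no call. NDUFB2 was the 1 gene of the 10 called from this viewpoint at 24 h, with -0.64. The largest rises at 96 h with at least 50 counts were at 228 and 204 kb on the KDM7A side, inside the KDM7A gene past its start, with 555 and 528 counts at 96 h and 245 and 236 at 0 h. Their log2 odds ratios were 1.16 (0.94 to 1.39) and 1.14 (0.92 to 1.37). From this viewpoint these tiles over the KDM7A gene body gained contacts while the window at its start had no call.

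The triple of boundary site, enhancer and KDM7A promoter numbered 12 at 0 h, 13 at 24 h and 26 at 96 h from the boundary viewpoint. The log2 odds ratio at 96 h against 0 h was 1.09 (0.05 to 2.21), which was called, and 4 of 8 other settings did not call it. Against the reference from its 2 windows, which is above the number from independent placing, this triple had 0.67 (0.35 to 1.17) times at 0 h. It had 1.14 (0.75 to 1.67) times at 96 h. The triple with SLC37A3 in place of KDM7A numbered 2, 5 and 1, too few to compare. There was no depleted library from this viewpoint.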

How the data were processed

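The authors prepared Tri-C libraries from NlaIII-digested, ligated chromatin and enriched them for the viewpoints in 3 biological replicates. The submitters' processing notes name hg38 as the build. CapCruncher 0.2.3 was run by the authors, who merged the replicates and deposited a count for each pair of reporter fragments seen with the viewpoint. All 105760 fragments of the 7 KDM7A libraries lay between NlaIII sites of hg38. The study corrected binned counts for fragments per bin, whereas raw counts were used here. Each viewpoint was located as the gap without reporters that the counts surround, and both gaps held the study's capture oligonucleotides. Promoters were the canonical starts in GENCODE 44.

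Windows and tiles spanned 12 kb. Window counts were compared with the other counts within 1 Mb of the viewpoint by odds ratios with exact conditional intervals at the 95% level, and shares have Clopper-Pearson intervals. Changes were called from 1.5-fold where the interval excluded 0. Tiles needed 20 counts over both libraries. With 0 counts, 3 counts served as the floor. Tiles named are the 3 largest called rises and falls with at least 50 counts, and genes named have starts within 500 kb. Members, lists and tests were chosen with earlier results of these data known, and the further fragments, pair classes, steps and local contrasts were added after the profiles had been seen. IFNGR2 and TASL were left out of the loci. The call rule was tested on simulated data. Python 3.11.15 was used with NumPy 2.4.6, SciPy 1.17.1 and matplotlib 3.10.9.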

Additional observations from a re-analysis of the deposited data

How the results depend on the processing

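Each result was recomputed with windows of 7.5 or 30 kb, a distance of 20 kb, distant or chromosome counts as total, each fragment pair counted once, without adjacent fragments and with counts divided by 3, as far as each applied. Changes at SLC37A3 kept their call and direction in all 8 settings, from -1.01 to -0.67 for 96 h against 0 h and from 1.16 to 1.68 for depleted against 96 h. Boundary crossing kept its calls in all 5 settings, from -1.72 to -1.60 and from 1.66 to 1.86. The rise of the KDM7A promoter at 96 h kept its call, from 1.01 to 1.60, and at 24 h it was lost in windows of 30 kb (0.52). Its fall in the depleted library lost its call with distant counts as total (-0.38), each pair once (-0.31) and no adjacent fragments (-0.46). The boundary site's fall in that library lost its call in windows of 30 kb (-0.18), with distant counts (-0.19) or chromosome counts (-0.50) as total, with each pair once (-0.19) and without adjacent fragments (-0.28). Its rise at 24 h gained a call with distant counts (0.66) or chromosome counts (0.72). SLC37A3 relative to KDM7A gained a call at 24 h in windows of 7.5 kb (-1.15) and at 20 kb (-0.61). The triple of enhancer, KDM7A promoter and boundary site, not called in the depleted library, was called lower there in windows of 7.5 kb (-1.95) and 30 kb (-0.59). Why these calls changed was not tested. No paired analysis was possible because the files pool the replicates.

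Tile counts moved by over 1.5 times as follows, higher or lower calls at the enhancer first. At 24 h, 6 higher became 11 with chromosome counts, 3 with each pair once and 0 at 2-fold, and 54 lower became 24 with counts divided by 3 and 34 at 2-fold. At 96 h, 11 higher became 18 with chromosome counts and 4 at 2-fold, and 80 lower became 35 with counts divided by 3 and 49 with at least 50 counts. In the depleted library, 41 higher became 19 with counts divided by 3, and 61 lower became 27 with distant counts, 19 with each pair once, 36 with counts divided by 3 and 32 at 2-fold. At the boundary, 16 higher at 24 h became 8 with distant counts, 8 with counts divided by 3 and 2 at 2-fold, and 12 lower became 20 with distant counts, 7 with chromosome counts, 3 with counts divided by 3 and 5 with at least 50 counts. At 96 h, 11 higher became 17, 7 and 3 with chromosome counts, counts divided by 3 and calls at 2-fold, and 44 lower became 17 with counts divided by 3 and 28 at 2-fold. Calls at 2-fold moved counts of loci. Promoter windows from the enhancer had 3 loci higher and 4 lower at 24 h, beside 10 and 9, 6 lower at 96 h, beside 11, and 23 lower in the depleted library, beside 40. From the boundary 1 was higher and 0 lower at 24 h, beside 12 and 1, and 9 higher and 0 lower at 96 h, beside 21 and 1. With counts divided by 3, the 1 lower at 24 h was lost. Crossing had 1 higher and 3 lower at 24 h, beside 6 and 10, 1 and 9 at 96 h, beside 3 and 21, and 15 higher in the depleted library, beside 32. Depth limits the triples, most of which held under 20 counts a library.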
